A study of Mus musculus with 6 samples.

Results

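Genes of lipid-associated and monocyte-derived macrophages were followed in livers of mice that lack small Maf genes in the liver. The 10 names listed for this group were Trem2, Gpnmb, Cd9, Cd63, Lgals3, Tyrobp, Itgax, Ccr2, Ly6c2 and Lpl2. Members were taken as all non-control probes whose transcript accession maps to a listed gene, which gave 12 probes of 9 genes among 41174 non-control probes. No gene or synonym in the gene table is called Lpl2, so that entry has no probe and no value here. All 9 genes with a probe were among the 21058 genes and unmatched transcripts tested. Gpnmb entered the test through the sMaf CKO arrays alone, since the test asked for a signal well above background on 3 or more of the 6 arrays.

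RNA was taken from liver at 5 weeks of age in 2 groups, 3 mice with a liver-specific small Maf knockout (sMaf CKO) and, as control, 3 wild type mice. Both groups were of a mixed background of 129Sv/J, C57BL/6J and ICR. Each RNA sample was hybridised to its own one-colour (Cy3) Agilent array, and the submitters call the samples of a genotype independent. The labels state neither the sex of the mice, nor which small Maf genes were deleted, nor what drove the deletion. The comparison asks how transcript levels differ between sMaf CKO and control liver.

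TREM2 is a receptor of macrophages and microglia that binds lipids and lipoproteins and signals through the adaptor that Tyrobp encodes. In fatty liver and adipose tissue, macrophages with high Trem2, Gpnmb, Cd9, Cd63 and Lgals3 are called lipid-associated, and many of them arise from blood monocytes. Such monocytes carry the chemokine receptor CCR2 and the surface protein Ly6C, while resident liver macrophages (Kupffer cells) are largely of embryonic origin. Several of these genes are not limited to macrophages, since Cd9, Cd63 and Lgals3 are also expressed by epithelial and other cells.

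Each array detected 58.04% to 73.57% of its probes, that is, read them as well above background. The processed signal had a 75th percentile of 484.4 to 960.5 in sMaf CKO liver and of 483.4 to 609.3 in control liver. Levels below are log2 processed signals minus that percentile of the array. Replicates 1 and 2 of both genotypes shared slide 1 and replicate 3 of both shared slide 2, so a value within slide 2 sets 1 array against 1. Mafg, a small Maf gene, had levels of -2.97, -4.36 and -0.76 on sMaf CKO arrays 1, 2 and 3, against 1.88, 1.87 and 2.23 on control arrays 1, 2 and 3 (adjusted p = 0.0533). Where the Mafg probe lies relative to the deleted part is not known here. The small Maf genes Mafk and Maff were not lower and overlapped between genotypes. They differed by 0.21 (adjusted p = 0.759) and 0.15 (adjusted p = 0.911). The labelled tissue was checked by detection, and 11 of 11 tested hepatocyte markers and 12 of 12 tested Kupffer cell markers were well above background on all 6 arrays. Macrophage RNA was therefore measurable in both genotypes, with 15 of 16 pan-macrophage genes well above background on every array.

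Trem2 and Gpnmb rose in sMaf CKO liver, and they were the 2 of 9 members that passed limma's test at an adjusted p under 0.05. Gpnmb could be counted only through its sMaf CKO arrays, the group where it was high. Over all genes tested, 0.541% passed in either direction and 0.385% were higher in sMaf CKO liver. Cd63 and Lgals3 were 6.71-fold and 3.44-fold higher with adjusted p-values just above the threshold. Other settings moved these p-values below it or well above it. Tyrobp, Cd9 and Itgax had smaller positive differences, Ccr2 differed little, and Ly6c2 alone had a negative difference. In whole-liver RNA, more cells of a type and more RNA per cell cannot be told apart.

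The stretches around the annotated starts of Trem2 and Gpnmb are shown because these members rose, and that of Itgax because it holds the same motif. They are RefSeq sequences on GRCm38.p6, plus strand, from 130 bases before the start to 20 bases from it. Capitals mark TGANTCA, which reads as itself on both strands. With C or G as the middle base it is the core bound by AP-1 and, as part of longer elements, by small Maf proteins. The Trem2 match, TGAATCA, has A there.
Trem2, chr17:48346271-48346420: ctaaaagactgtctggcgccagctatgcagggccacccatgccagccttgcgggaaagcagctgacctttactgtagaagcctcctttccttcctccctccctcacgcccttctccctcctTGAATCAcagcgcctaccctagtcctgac
Gpnmb, chr6:49036388-49036537: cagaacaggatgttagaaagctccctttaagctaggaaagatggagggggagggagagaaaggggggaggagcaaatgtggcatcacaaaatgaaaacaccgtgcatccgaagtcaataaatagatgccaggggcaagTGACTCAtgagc
Itgax, chr7:128129420-128129569: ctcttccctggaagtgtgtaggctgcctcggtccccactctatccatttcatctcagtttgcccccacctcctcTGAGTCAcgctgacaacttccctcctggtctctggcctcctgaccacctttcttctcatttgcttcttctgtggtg

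Promoter windows of 300 bases were held for 8 of the 9 genes with a probe. TGANTCA was found in 3 of these 8 genes, Trem2, Gpnmb and Itgax, and in 7.81% of the 32851 windows in the table. The match began 9 bases before the annotated start in Trem2, 56 bases before it in Itgax, and at base 9 from the start in Gpnmb. The core TGACNNNGC, bound by small Maf proteins with CNC factors, was searched on both strands and found in 1 gene, Itgax, from base 19 after the start (12.39% of windows). CACGTG, the E-box read by the MiT/TFE factors linked to lysosomal genes, was in 0 of the 8 genes and in 7.15% of windows. GAGGAAGT, a form of the site of the myeloid factor PU.1, was found in Ly6c2 alone among the 8, against 3.20% of windows. These matches describe letters in a window and show no binding.

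**Figure D1:**
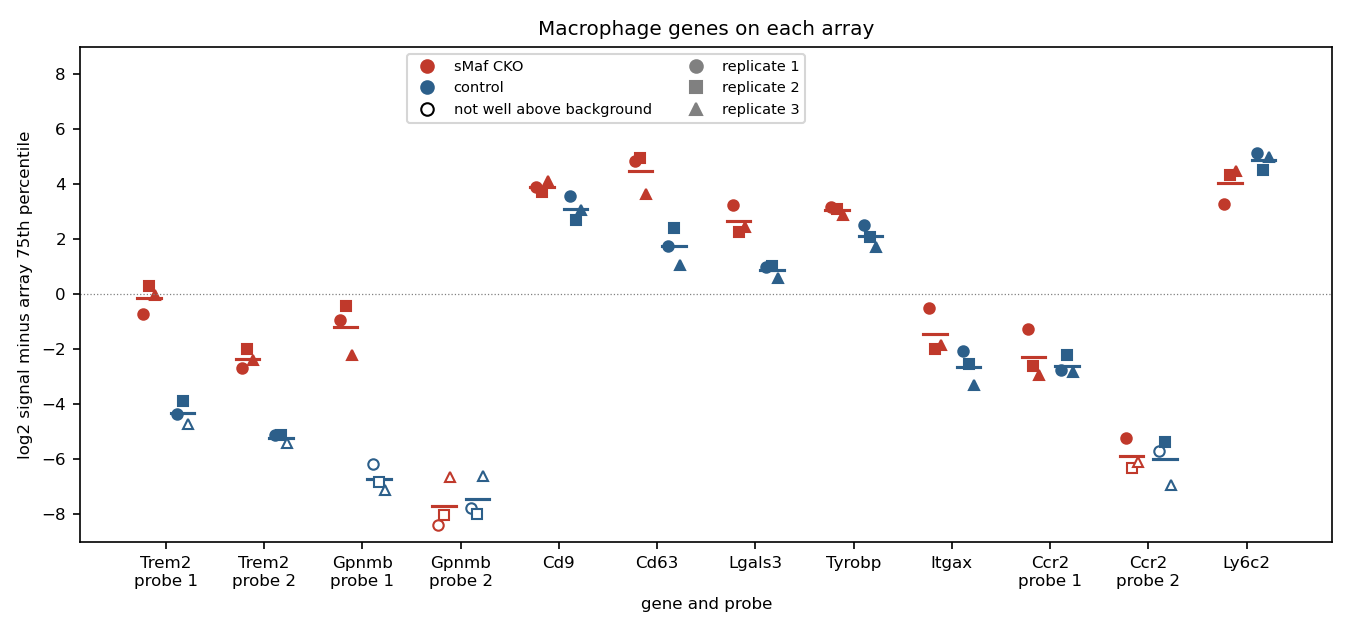
Level of every member probe on each array, as log2 signal minus the array's 75th percentile (vertical axis), by gene and probe (horizontal axis); red, sMaf CKO; blue, control; open symbols, not well above background; bars, means of 3 arrays. Both Trem2 probes and the first Gpnmb probe stand apart by genotype, the second Gpnmb probe is open on all 6 arrays, and Ly6c2 is the member whose control arrays are all above the sMaf CKO arrays.

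Trem2, the lipid-sensing receptor, had levels of -0.70, 0.31 and -0.03 on sMaf CKO arrays 1, 2 and 3, against -4.35, -3.88 and -4.72 on control arrays 1, 2 and 3 by its brighter probe. Every sMaf CKO array was above every control array by more than 3 log2 units, and control array 3 was not well above background. The mean was -0.14 ± 0.51 in sMaf CKO and -4.32 ± 0.42 in control liver (SD, n = 3 each). The difference was 4.18 (SE 0.34, 95% interval 3.40 to 4.96), or 18.1-fold (limma, adjusted p = 0.0105). In terms of processed signal, the spots read 591.4, 826.3 and 474.5 in sMaf CKO liver and 28.47, 41.38 and 18.36 in control liver.

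A second Trem2 probe gave levels of -2.68, -2.0 and -2.38 on the sMaf CKO arrays, against -5.11, -5.13 and -5.40 on the control arrays, of which array 3 was again not well above background. Its difference was 2.86 (SE 0.25), or 7.27-fold (6.39-fold with the dim array at the floor), with an adjusted p of 0.0116 when each probe was tested on its own, where 0.424% of probes passed. The 2 probes thus had the same direction and the same ordering of genotypes but differed in size. The low control signals bear on that size. Under normexp background correction the gene's difference was 2.61 (adjusted p = 0.0138). The call ended without control replicate 1 (difference 4.16, adjusted p = 0.0761) and with no filter on dim probes (adjusted p = 0.0558).

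Gpnmb encodes a transmembrane glycoprotein of phagocytes and pigment cells that is linked to lysosomes. By 1 of its 2 probes its levels were -0.93, -0.43 and -2.20 on sMaf CKO arrays 1, 2 and 3, against -6.17, -6.83 and -7.13 on the control arrays, none of which reached the level called well above background. The groups did not overlap, and sMaf CKO array 3 was the lowest of its genotype. With the control arrays raised to the lowest signal well above background, the rise in processed signal was at least 22.2-fold. The adjusted p of 0.0117 (limma) was computed on the measured levels, undetected ones included. The measured means were -1.19 ± 0.92 in sMaf CKO and -6.71 ± 0.49 in control liver (SD, n = 3 each).

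The other Gpnmb probe, annotated to the same transcript, was too dim to be detected on any of the 6 arrays. Its levels were -8.39, -8.01 and -6.66 in sMaf CKO and -7.76, -8.00 and -6.63 in control liver, and it was not tested. The rise of Gpnmb therefore rests on a single probe, and the sequences of the probes were not used here. Its log2 difference was 2.56 under normexp background correction (adjusted p = 0.0199), a smaller rise than the 22.2-fold bound. The call ended without sMaf CKO replicate 1 (difference 5.39, adjusted p = 0.0858), without control replicate 1 (5.79, adjusted p = 0.0690) and with no filter on dim probes (adjusted p = 0.0560).

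Tyrobp encodes the adaptor DAP12, which carries the signal of TREM2 and of other receptors of myeloid and NK cells. Its levels were 3.19, 3.11 and 2.90 on sMaf CKO arrays 1, 2 and 3, against 2.53, 2.07 and 1.73 on control arrays 1, 2 and 3. Every sMaf CKO array read higher than every control array, though the closest lay 0.37 apart on the log2 scale. The difference was 0.96 (SE 0.26, 95% interval 0.35 to 1.56), or 1.94-fold, and did not pass (adjusted p = 0.153). The difference of Trem2 was thus several times larger on the log2 scale than that of its adaptor on the same arrays.

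Cd63 and Cd9 encode tetraspanins, membrane proteins that are used as markers of endosomes and extracellular vesicles. Cd63 had levels of 4.86, 4.95 and 3.66 on sMaf CKO arrays 1, 2 and 3, against 1.75, 2.41 and 1.07 on control arrays 1, 2 and 3. All sMaf CKO arrays lay above all control arrays, and replicate 3 was the lowest of both genotypes. The difference was 2.75 (SE 0.45, 95% interval 1.69 to 3.80), or 6.71-fold, with an adjusted p of 0.0525. That limma p was 0.0876 under quantile normalization, 0.219 with scaling on spike-in probes and 0.177 with no filter on dim probes. With an array left out it ranged from 0.0187 to 0.189.

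Cd9 gave 3.89, 3.74 and 4.14 in sMaf CKO and 3.57, 2.70 and 3.06 in control liver. Its arrays did not overlap either, but control array 1 came within 0.16 of the lowest sMaf CKO array. The difference was 0.81 (SE 0.28, 95% interval 0.17 to 1.45), or 1.75-fold, and did not pass (adjusted p = 0.214). Of 13 other tetraspanin genes tested, 0 passed, and their median difference was 0.01. Of these genes, 2 were higher in sMaf CKO at an unadjusted p under 0.05, against 8.71% of all genes. Nearest to the threshold were Tspan6 (0.71, adjusted p = 0.162) and Tspan3 (0.49, adjusted p = 0.286).

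Lgals3 encodes galectin-3, a secreted lectin that binds galactosides and is made by activated macrophages and by bile duct epithelium. It had levels of 3.24, 2.28 and 2.45 on sMaf CKO arrays 1, 2 and 3, against 1.0, 1.02 and 0.60 on the control arrays. The genotypes were well apart and the 3 control arrays lay close together. The difference was 1.78 (SE 0.30, 95% interval 1.08 to 2.49), or 3.44-fold, with an adjusted p of 0.0547. That limma p was 0.0891 under quantile normalization, 0.343 with scaling on spike-in probes and 0.182 with no filter on dim probes. With an array left out it ranged from 0.051 to 0.185. Of 6 other galectin-list genes tested, 0 passed. Lgals1, which encodes galectin-1, was nearest with a difference of 1.62 (SE 0.27, adjusted p = 0.0525). Its adjusted p was 0.0320 with slide as a block and reached 0.317 in another setting. Lgals3bp, a galectin-binding protein, followed (0.64, adjusted p = 0.280).

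The slide bears on where these genes fall. With slide as a block, 4 of the 9 members passed, all higher in sMaf CKO liver, against 1.61% of all genes in either direction and 0.992% higher. They were Gpnmb (adjusted p = 0.00306), Trem2 (0.00868), Cd63 (0.010) and Lgals3 (0.0364). Gpnmb was again counted through its sMaf CKO arrays alone. Within slide 1 and within slide 2, the differences were 3.92 and 4.69 for Trem2, 5.82 and 4.93 for Gpnmb, 2.83 and 2.59 for Cd63, and 1.75 and 1.84 for Lgals3. Each of the 4 was thus higher in sMaf CKO liver on both slides.

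**Figure D2:**
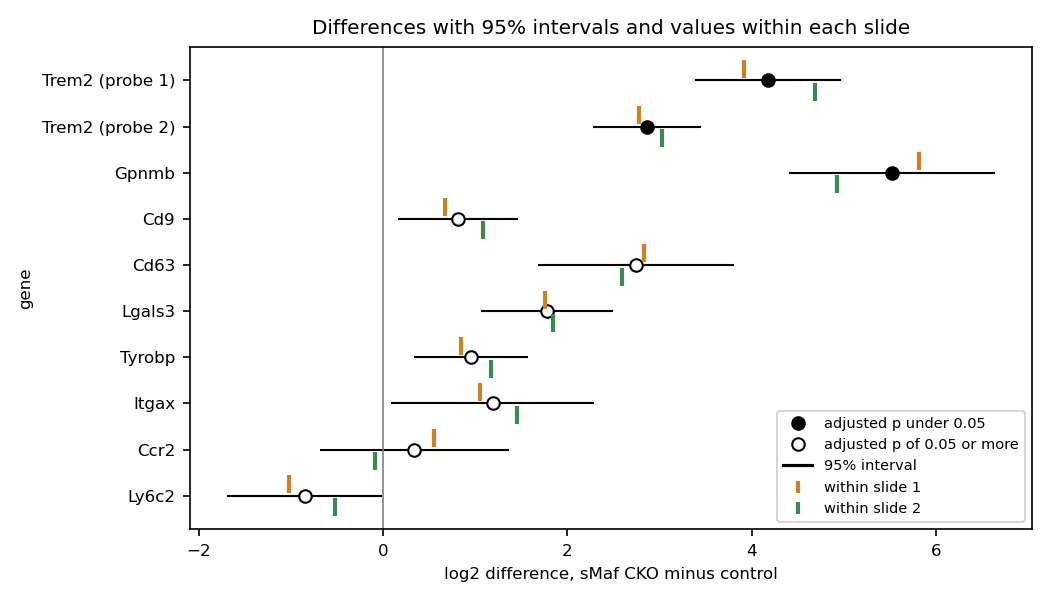
Difference between sMaf CKO and control liver on the log2 scale (horizontal axis) for each tested probe of the members (vertical axis); circles, limma estimate, filled where the adjusted p was under 0.05; lines, 95% intervals; ticks, differences within slide 1 (orange) and slide 2 (green). The Gpnmb estimate rests on undetected control signals, Ly6c2 lies below 0, and Ccr2 is the member whose 2 slides lie on opposite sides of 0.

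Itgax encodes CD11c, an integrin of dendritic cells and of some macrophages. Its levels were -0.51, -2.0 and -1.85 on sMaf CKO arrays 1, 2 and 3, against -2.07, -2.55 and -3.30 on control arrays 1, 2 and 3. The groups did not overlap, but sMaf CKO array 2 and control array 1 differed by only 0.07. The difference was 1.19 (SE 0.47, 95% interval 0.09 to 2.28), or 2.28-fold, and did not pass (adjusted p = 0.267). Without sMaf CKO replicate 1 it was 0.72.

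Ccr2 encodes the receptor through which monocytes leave the marrow and enter tissue. By its brighter probe the levels were -1.27, -2.61 and -2.92 on sMaf CKO arrays 1, 2 and 3, against -2.77, -2.21 and -2.83 on the control arrays. The genotypes overlapped, and sMaf CKO array 1 was the single high value. The difference was 0.34 (SE 0.44, 95% interval -0.68 to 1.36), which leaves room for up to a 2.56-fold rise (adjusted p = 0.732). Without sMaf CKO replicate 1 it was -0.16, and the 2 slides gave 0.55 (slide 1) and -0.088 (slide 2). Its other probe was well above background on 1 of 3 arrays in each genotype and was not tested.

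Chemokine genes of monocytes and macrophages, which include ligands of CCR2, were measured on the same arrays. They were chosen after their values were seen. Ccl2 had levels of 1.65, 0.24 and 0.25 in sMaf CKO and -1.71, -1.85 and -3.0 in control liver, a difference of 2.90 (SE 0.49, adjusted p = 0.0533; 0.0234 with slide as a block). Ccl12, detected on 2 of 3 control arrays, differed by 1.93 (adjusted p = 0.0978, and 0.0489 with slide as a block). Ccl7 differed by 0.77 (adjusted p = 0.274) and Ccl8 by 1.75 (adjusted p = 0.415). All 4 chemokine differences were positive on both slides, and none passed with genotype alone in the model. With a replicate block Ccl2 (adjusted p = 0.0213), Ccl8 (0.0308) and Ccl12 (0.0495) passed, and Ccl2 also did so with median scaling (0.0303). With scaling on spike-in probes the adjusted p was 0.218 for Ccl2 and 0.36 for Ccl12. Replicate numbers were not taken as pairs, and 291 of 21058 genes passed with the replicate block. Size depended on the settings for the dimmer chemokines. Under normexp background correction Ccl12 differed by 0.58, Ccl8 by 0.95 and Ccl7 by 0.40, while the mean of its probes gave 2.04 for Ccl7. Without sMaf CKO replicate 1, Ccl7 differed by 0.46 and Ccl8 by 0.86, and Ccl8 ranged from 1.12 (without control replicate 3) to 2.71 (without control replicate 1).

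Ly6c2 encodes a Ly6C surface protein that is high on inflammatory monocytes. It had levels of 3.29, 4.33 and 4.49 on sMaf CKO arrays 1, 2 and 3, against 5.13, 4.53 and 5.01 on control arrays 1, 2 and 3. All control arrays were above all sMaf CKO arrays, the closest by 0.04. The difference was -0.85 (SE 0.36, 95% interval -1.68 to -0.02) and did not pass (adjusted p = 0.289). It was -0.48 without sMaf CKO replicate 1 and -0.55 under spike-in scaling. Ly6c1, a close paralog whose transcripts the probe may also read, differed by 0.25 (adjusted p = 0.720). Whether the Ly6c2 probe tells the paralogs apart was not tested.

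Lipoprotein lipase, Lpl, has a name near that of the unmatched entry Lpl2 but is not treated as a member. Its levels were 4.96, 5.27 and 4.27 in sMaf CKO and 3.32, 4.81 and 3.62 in control liver. The genotypes overlapped, and the difference of 0.92 did not pass (adjusted p = 0.339).

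Across the 9 tested members, 8 differences were positive, against 45.3% of all genes tested. In 7 members all sMaf CKO arrays lay above all control arrays, which held for 11.3% of all genes. The median difference of the members was 1.19, and that of all genes was -0.05. These figures describe the members only, since Gpnmb passed the filter through its high group. Scaling on E1A spike-in probes moved the median of all genes to 0.25, and no member changed sign under it or under quantile or median scaling.

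Related lists were drawn from general knowledge of the pathway, with earlier results of these data known. Of 14 tested genes of TREM2 signalling and the TREM family, 1 rose, 0 fell and 13 did not pass, with a median of 0.66. The gene that rose was Hcst, which encodes DAP10, an adaptor that pairs with the product of Tyrobp in TREM2 signalling. Hcst had levels of 0.21, -0.16 and 0.54 in sMaf CKO and -1.28, -1.91 and -1.78 in control liver, a difference of 1.86 (SE 0.28, 3.62-fold, adjusted p = 0.0477). Its arrays did not overlap, and the difference was 1.62 within slide 1 and 2.33 within slide 2. The kinase gene Syk differed by 0.64 (adjusted p = 0.362) and the phospholipase gene Plcg2 by 0.64 (adjusted p = 0.309), both named after their values were seen. Trem1 and Trem3 were too dim to test. The Hcst call ended under quantile normalization (adjusted p = 0.0627), spike-in scaling (0.150) and no filter on dim probes (0.177). It also ended without any one array other than sMaf CKO replicate 3, with adjusted p-values up to 0.155.

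Of 23 tested genes of lipid-associated macrophages outside the members, 0 passed (5 higher and 1 lower in sMaf CKO at an unadjusted p under 0.05, against 16.8% of all genes in either direction). Their median difference was 0.50. Mmp12, a macrophage elastase, was detected on 0 of 3 control arrays and was at least 6.37-fold higher (adjusted p = 0.0523; 0.0370 with slide as a block). Under normexp background correction its difference was 1.28 (adjusted p = 0.249), below that bound. Its levels were -1.62, -4.69 and -2.65 in sMaf CKO and -7.88, -7.48 and -6.77 in control liver. Atp6v0d2, a subunit of the vacuolar proton pump, had a difference of -1.36 (adjusted p = 0.0769). Its adjusted p was 0.0494 with slide as a block and reached 0.472 in another setting. Another 3 genes of this list, Cd68, Fabp5 and Clec7a, had no matched probe.

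**Figure D3:**
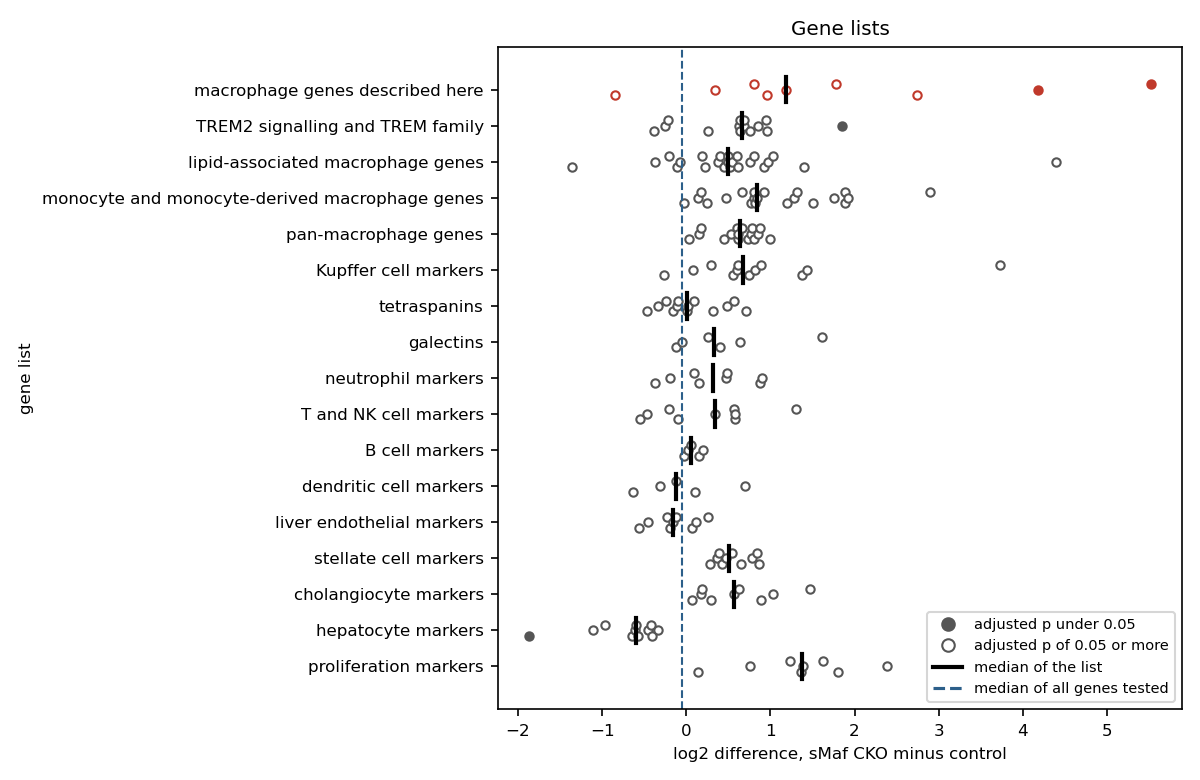
Difference between sMaf CKO and control liver on the log2 scale (horizontal axis) for each tested gene of the lists (vertical axis); red, the members; grey, other lists; filled points passed at an adjusted p under 0.05; black bars, list medians; dashed line, median of all genes tested. Hcst is the only filled point of the macrophage lists besides Trem2 and Gpnmb. Gpnmb and Mmp12 were detected on 0 of 3 control arrays, so their plotted sizes rest on undetected signals.

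The 16 pan-macrophage genes are expressed by macrophages, but some, such as Ptprc (CD45), are shared with other leukocytes. All 16 had positive differences, from 0.03 to 0.99 with a median of 0.64, against 45.3% of all genes. Of the 16, 0 passed and 4 were higher at an unadjusted p under 0.05, against 8.71% of all genes. Fcer1g, an immunoreceptor signalling chain, differed by 0.86 (adjusted p = 0.154) and C1qc, a complement subunit, by 0.77 (adjusted p = 0.244). The summed level of the list was 90.8 to 136.0 times the 75th percentile on sMaf CKO arrays and 51.3 to 93.1 times on control arrays, so the genotypes overlapped. Csf1r (0.18) and Adgre1 (0.45), both used to define macrophages and named after their values were seen, had adjusted p-values of 0.836 and 0.506.

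As a description, each member's level was set against the mean difference of the 16 pan-macrophage genes from their control means on the same array, a score that averaged 0.61 in sMaf CKO and 0 in control liver. After this subtraction the difference was 3.57 for Trem2, 2.14 for Cd63 and 1.18 for Lgals3, and none of these overlapped between genotypes. Gpnmb is given no size here, since its control arrays held no detected signal. The Trem2 size rests in part on control array 3, which was not well above background. The difference was 0.58 for Itgax, 0.35 for Tyrobp and 0.21 for Cd9, and each of these 3 overlapped. It was -0.27 for Ccr2, which overlapped, and -1.46 for Ly6c2, which did not. The score also draws on genes of other leukocytes, so it is not a measure of macrophages alone. No test was run on these values, and the share of all genes without overlap after the subtraction was not computed. Before it, 22.9% of all genes did not overlap in either direction.

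Of 21 tested genes of monocytes and monocyte-derived macrophages, 20 had a positive difference and 0 passed (12 at an unadjusted p under 0.05, all higher, against 8.71% of all genes). Their median was 0.84. The smallest p-values belonged to Ccl2, given above, and Nr4a1, a nuclear receptor of patrolling monocytes (1.20, adjusted p = 0.0978). The summed level of the list was 30.8 to 43.2 times the 75th percentile on sMaf CKO arrays and 15.9 to 24.3 times on control arrays, without overlap.

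Of 12 tested Kupffer cell markers, 11 had a positive difference, against 45.3% of all genes, and 0 passed, with a median of 0.68. Of the 12, 6 were higher at an unadjusted p under 0.05, against 8.71% of all genes. Marco, a scavenger receptor, had levels of 7.69, 6.45 and 5.31 in sMaf CKO and 3.30, 3.74 and 1.23 in control liver, a difference of 3.73 (adjusted p = 0.0858). Its adjusted p was 0.0107 with slide as a block and 0.264 under spike-in scaling. Spic, a transcription factor of iron-recycling macrophages, differed by 1.38 (adjusted p = 0.0996). Clec4f and Timd4, which define Kupffer cells and were named after their values were seen, differed by 0.61 (adjusted p = 0.252) and 0.29 (adjusted p = 0.630).

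Markers of other cells also differed between the genotypes, and their part in the results was not tested. Of all genes, 45.3% had a positive difference. At an unadjusted p under 0.05, 8.71% of all genes were higher and 16.8% differed in either direction. These shares are the background for the counts in this and the next paragraph. The one hepatocyte marker of 11 that passed was Tdo2, a tryptophan oxygenase, which fell by 1.86 on the log2 scale (adjusted p = 0.0382). This call ended under quantile normalization (adjusted p = 0.0596), spike-in scaling (0.300) and no filter (0.152), and without any one array other than sMaf CKO replicate 3 (up to 0.134). The list's median was -0.59, and 0 of its 11 tested genes had a positive difference (4 were lower at an unadjusted p under 0.05). The summed level of the hepatocyte list was 1112 to 1871 times the 75th percentile on sMaf CKO arrays and 1787 to 2386 times on control arrays. Bile duct markers, a possible source of Lgals3, Cd9 and Cd63, had a median of 0.57 with 0 of 9 passed (2 at an unadjusted p under 0.05), and their summed level was 12.3 to 51.2 in sMaf CKO and 10.3 to 12.6 in control liver. Most of that sum was Spp1 (osteopontin), which was named after its values were seen and is also on the lipid-associated list. It had levels of 5.58, 3.29 and 3.97 in sMaf CKO and 2.99, 3.34 and 3.42 in control liver. Without Spp1 the sum was 2.47 to 3.40 in sMaf CKO and 1.86 to 2.35 in control liver. The bile duct genes nearest to the threshold were Cldn7, a claudin (1.48, adjusted p = 0.128), and Epcam (0.89, adjusted p = 0.235). For Cldn7 the adjusted p was 0.0429 with slide as a block and reached 0.426 in another setting. Stellate cell markers had a median of 0.51 with 0 of 10 passed (4 at an unadjusted p under 0.05), nearest Reln (0.84, adjusted p = 0.109) and Lrat (0.79, adjusted p = 0.202). The summed level of the stellate cell list was 128.5 to 156.7 in sMaf CKO and 86.0 to 109.4 in control liver, without overlap.

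Neutrophil markers had a median of 0.31 with 0 of 8 passed (2 at an unadjusted p under 0.05), and their summed level of 6.23 to 9.16 in sMaf CKO liver overlapped at its lower end with the control range of 3.85 to 6.25. Retnlg (0.90, adjusted p = 0.192) and Mmp8 (0.88, adjusted p = 0.214) were nearest to the threshold. T and NK cell markers overlapped, at 0.99 to 3.63 in sMaf CKO and 0.93 to 2.23 in control liver, with the highest value on sMaf CKO array 1, and Ncr1 differed by -0.55 and Cd8a by 1.30 (adjusted p = 0.224 and 0.464). Without sMaf CKO replicate 1, Cd8a differed by 0.25. B cell markers overlapped too, at 0.57 to 1.15 in sMaf CKO and 0.49 to 1.20 in control liver, and Cd79a differed by 0.15 (adjusted p = 0.840). Dendritic cell markers, which share Itgax as a marker, had a median of -0.13 and liver endothelial markers one of -0.16, and both turned positive under spike-in scaling. Batf3 (0.70) and Xcr1 (-0.31) of dendritic cells and Kdr (-0.56) and Stab2 (-0.46) of endothelium did not pass (adjusted p from 0.326 to 0.548). Proliferation markers had a median of 1.38 with 0 of 8 passed (3 at an unadjusted p under 0.05), led by Ccnb1 (2.39, adjusted p = 0.187) and Birc5 (1.81, adjusted p = 0.222), and control array 2 scored 1.33, within the sMaf CKO range of 1.03 to 1.52. Without control replicate 2, Ccnb1 (adjusted p = 0.0160) and Birc5 (adjusted p = 0.0167) passed.

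**Figure D4:**
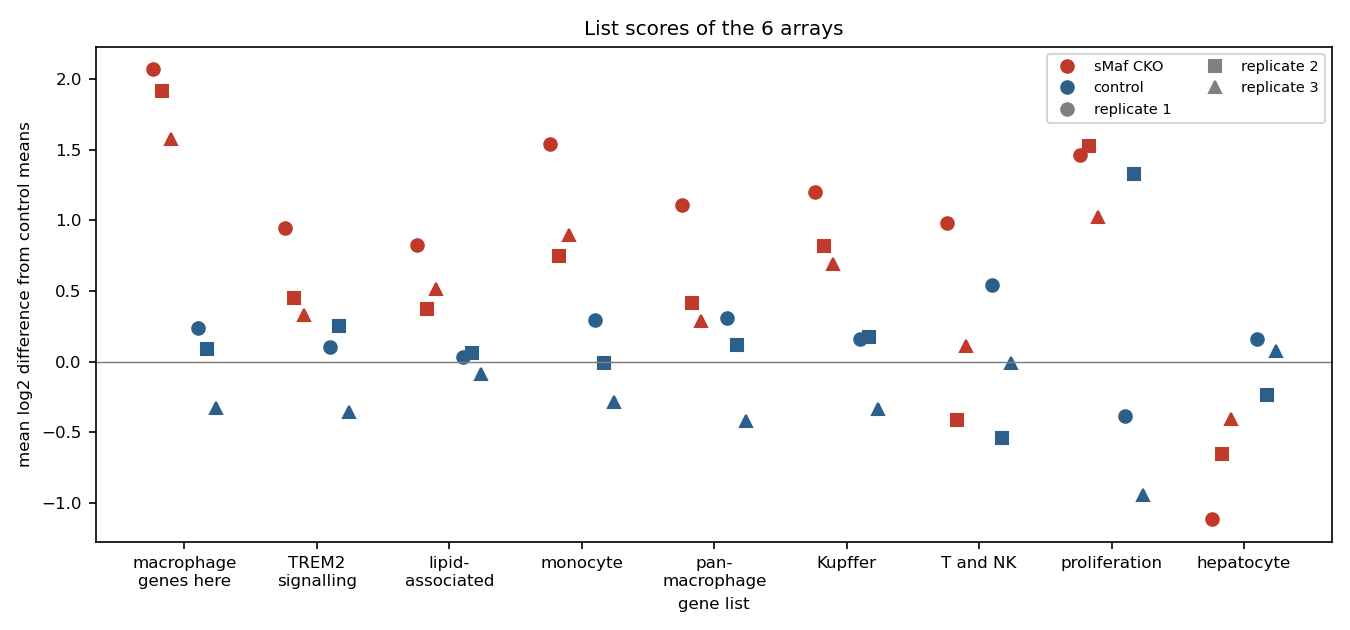
Mean difference of each list's tested genes from their control means on each array, on the log2 scale (vertical axis), by list (horizontal axis); red, sMaf CKO; blue, control; symbols give the replicate. The members score 1.57 to 2.07 on sMaf CKO arrays and -0.33 to 0.24 on control arrays, and the TREM2, lipid-associated, monocyte and Kupffer cell lists also separate the genotypes. The hepatocyte list separates them too, at -1.115 to -0.408 on sMaf CKO arrays and -0.237 to 0.161 on control arrays. The pan-macrophage, T and NK cell and proliferation lists overlap. Of the lists not plotted, the stellate cell, bile duct and galectin lists score higher on all sMaf CKO arrays, and the others overlap.

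The arrays of a genotype were not alike in the macrophage lists. sMaf CKO array 1 had the highest score of the 6 for the members (2.07), the pan-macrophage genes (1.11), the monocyte genes (1.54) and the Kupffer cell markers (1.20), as well as for T and NK cell markers (0.98). The members did not follow it one by one. Trem2 was lowest of the sMaf CKO arrays on array 1, Gpnmb and Cd63 were highest on array 2, and Lgals3, Itgax, Ccr2 and Tyrobp were highest on array 1. Control array 3 was the lowest of the 6 for Trem2, Gpnmb, Cd63, Lgals3, Tyrobp and Itgax.

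The genes whose pattern over the 6 arrays was nearest to that of Trem2, by root-mean-square difference of centred levels among 14179 candidates, were S100g (0.45), Plaat1 (0.53) and Cdkn1a (0.54). S100g encodes a calcium-binding protein of epithelia and Cdkn1a the cell cycle inhibitor p21. For Gpnmb they were Myo5c (0.38), S100g (0.65) and Gsta2 (0.83), a myosin, the same calcium-binding protein and a glutathione S-transferase. None of these is on the macrophage lists, and with 2 groups of 3 arrays this measure mostly ranks genes by the size of the difference between genotypes. Myo5c was well above background on 3 of the 6 arrays, Plaat1 on 4, and Gpnmb on 0 of 3 control arrays. Their distances therefore rest partly on undetected signals.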

How the data were processed

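Per the file headers, the authors extracted spot intensities with Agilent Feature Extraction 10.7.3.1, and the deposited processed intensity is background-subtracted and detrended within an array. Local background and median spot intensities and the 0 or 1 flags used (other columns) are also deposited. The deposited value table holds log2 values with no stated recipe. Their direction, scale and centring match log2 intensity less the 75th percentile of its array, with each probe's median over the arrays subtracted (r of at least 0.99998). Column medians were -0.10, -0.11 and 0.09 for sMaf CKO 1 to 3 and 0.05, -0.02 and 0.08 for control 1 to 3.

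Spots flagged as outliers were left out, spots of a probe averaged, and 27859 probes kept that were well above background on 3 or more of 6 arrays. Accessions named 26690 probes through the RefSeq table of GRCm38.p6, and 14484 were left unnamed. The brightest kept probe stood for a gene. Genotype was the only term in limma 3.58.1 (R 4.3.3), with Benjamini-Hochberg adjustment over all genes. Each group has 3 arrays, which limits precision. Where a gene was detected on no array of a group, its fold is a bound for the processed signal only. It was computed against the higher of the gene's own signal and the lowest signal well above background.

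Members and lists were chosen with earlier results of these data known. Beside every member, up to 4 changed genes of a list, or else the 2 with the smallest p, are named, and the 3 genes nearest to Trem2 and Gpnmb; 1 gene that this rule names is not reported here. Alternatives covered background correction, scaling, the authors' table, filters, probe choice, blocks, eBayes settings and each array left out. Spike-in scaling and the comparison with the pan-macrophage score were added after seeing the data.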

Additional observations from a re-analysis of the deposited data

How the results depend on the processing

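The number of members called was 2, and it was 4 with median scaling, a slide block, a replicate block, eBayes with trend and robust settings, or a filter that asked for every array of a genotype. It was 0 with no filter on dim probes or at an adjusted p under 0.01, and from 0 to 3 with an array left out. Asking for all 6 arrays also gave 2, but those were Cd63 and Lgals3, since that filter removes Trem2 and Gpnmb. The TREM2 and lipid-associated lists gave 1 call. They gave 2 with median scaling, a replicate block, eBayes trend or the 2 stricter filters, and 3 with a slide block. One direction did not hold throughout: 1 of the 2 calls with all 6 arrays asked for was lower in sMaf CKO liver, as was 1 of the 3 with a slide block. These lists gave 0 under quantile normalization, spike-in scaling, no filter or an adjusted p under 0.01 (0 to 1 with an array left out). All genes gave 114 calls, against 74 with normexp, 22 with quantile, 252 with median and 12 with spike-in scaling, 1 with no filter, 267 and 254 with the stricter filters, 291 with a replicate block, 340 with a slide block, 308 with eBayes trend, 3 at an adjusted p under 0.01, and 3 to 294 with an array left out. The causes were not tested. The sign of Ccr2 turned within slide 2 (-0.088) and without sMaf CKO replicate 1 (-0.16; up to 0.67 with another array left out). The other 8 members kept their sign under every alternative run. Deviations of arrays with the same number correlated at 0.06, 0.17 and 0.42, all positive. sMaf CKO 2 and sMaf CKO 3 correlated best with the control of their own number, and sMaf CKO 1 with control 2 (0.29). Replicate 3 of both genotypes shared slide 2, so a pairing and a slide effect cannot be told apart there. Replicate numbers were not taken as pairs, and the replicate block moved the calls from 2 to 4 members. Among other genes named, signs turned for Ly6c1 (-0.029 within slide 1), Csf1r (-0.13 to 0.46 with an array left out, including -0.046), Cd79a (-0.086 to 0.36, and -0.32 within slide 1), Xcr1 (0.14 within slide 2) and Ncr1 (0.026 with normexp). Faint control signals limit the sizes of Trem2 and Gpnmb.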
